A study of Mus musculus with 16 samples.

Results

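The genes described here encode the proteins of the 2 ribosomes of a mouse cell, the cytoplasmic ribosome and the mitochondrial one, read in cultured osteoblasts after siRNA against Bicc1. Members were chosen by symbol alone. A gene was cytoplasmic if its symbol was Rpl or Rps plus a number, without pseudogenes, and mitochondrial if it was Mrpl or Mrps plus a number, and it had to be detected (detection p under 0.05) on 4 or more of 16 arrays. The rule took 55 of 60 cytoplasmic and 70 of 76 mitochondrial symbols on the array, which made 125 of 9560 genes or unnamed probes tested. Of the cytoplasmic members 33 belong to the large and 22 to the small subunit, and of the mitochondrial ones 43 and 27. Symbols of ribosomal protein kinases, a binding protein and a retrogene, 8 in all, were left out.

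Cytoplasmic ribosomal proteins and ribosomal RNA form the particle that translates nuclear-encoded messages, and their mRNAs are among the most abundant of any growing cell. Many of these mRNAs begin with a run of pyrimidines at the 5' end, the terminal oligopyrimidine (TOP) tract, through which nutrient signalling by mTOR controls their translation. The mitochondrial ribosome makes the few respiratory chain subunits encoded in mitochondrial DNA, but its own proteins are encoded in the nucleus and imported. In osteoblasts both kinds of translation serve the secretion of a collagen-rich bone matrix.

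The cells were primary osteoblasts from the skull bones of C57BL6/J neonates aged 3 to 9 days, of mixed gender per the labels. They were transfected with Lipofectamine 2000 and harvested after 48 hours. Controls were given scrambled siRNA (SC), and the remaining cells 1 of 3 siRNAs to Bicc1, an RNA-binding protein gene (BICC1_1, BICC1_2 and BICC1_3), with 4 Illumina bead arrays in each of 4 groups. Whether the 4 replicates of a group came from separate cultures is not stated in the labels. P-values therefore measure the spread among these arrays alone, and that spread may be technical.

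The arrays detected 11990 to 12863 probes each, with correlations of 0.973 to 0.997 between them. The Bicc1 signal stood at 53.7% of SC with BICC1_1 and at 33.3% with BICC1_2, but at 93.3% in the arrays labelled BICC1_3 (limma adjusted p = 0.776), where no loss of Bicc1 mRNA was detected. Of 10 osteoblast markers 8 had a probe and 5 were detected, Sp7, Alpl, Col1a1, Col1a2 and Sparc, while Bglap, Bglap2 and Ibsp did not meet the detection rule. All 5 macrophage markers with a probe were detected, whereas 3 of 4 endothelial (Pecam1, Cdh5, Kdr), 2 of 4 adipocyte (Fabp4, Adipoq) and 2 of 5 muscle markers (Myod1, Ckm) were not. Values are log2 intensities after background correction and quantile normalisation. In such bulk RNA, fewer cells of a type and less RNA per cell cannot be told apart.

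Promoter sequence of 8 members is shown here because these genes mark the ends of the pattern that follows: in each class, the 2 lowest on replicate 1 of the BICC1_3 group and 2 that stayed within the range of the other arrays both there and on BICC1_1 replicate 3, with the least displacement, among members with a promoter in the RefSeq table of build GRCm38.p6 that was used. Each line gives 100 bases before the annotated start and 50 bases from it, 5' to 3'. Capitals mark the ETS-family motif CCGGAAG on either strand and, where it is 5 bases or longer, the run of C or T that touches the 5 bases on either side of the start.
Rps15 promoter, chr10:80292331-80292480, plus strand: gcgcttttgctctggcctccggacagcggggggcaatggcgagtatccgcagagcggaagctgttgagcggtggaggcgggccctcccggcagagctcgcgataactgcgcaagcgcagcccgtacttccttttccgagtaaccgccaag
Rps26 promoter, chr10:128626457-128626606, minus strand: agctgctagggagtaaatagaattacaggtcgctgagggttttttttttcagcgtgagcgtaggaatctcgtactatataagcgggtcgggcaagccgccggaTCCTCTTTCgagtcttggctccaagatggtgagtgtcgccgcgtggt
Rpl41 promoter, chr10:128549119-128549268, minus strand: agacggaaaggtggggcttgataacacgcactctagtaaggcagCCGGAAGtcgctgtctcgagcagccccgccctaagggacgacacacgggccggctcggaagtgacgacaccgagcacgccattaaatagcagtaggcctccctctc
Rpl5 promoter, chr5:107900428-107900577, plus strand: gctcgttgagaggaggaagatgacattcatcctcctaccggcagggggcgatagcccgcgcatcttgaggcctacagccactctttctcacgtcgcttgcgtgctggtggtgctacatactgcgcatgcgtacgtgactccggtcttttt
Mrpl52 promoter, chr14:54426809-54426958, plus strand: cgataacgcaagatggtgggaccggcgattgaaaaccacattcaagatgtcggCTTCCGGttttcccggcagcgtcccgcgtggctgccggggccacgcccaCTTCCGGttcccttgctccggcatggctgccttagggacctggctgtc
Mrps21 promoter, chr3:95871465-95871614, minus strand: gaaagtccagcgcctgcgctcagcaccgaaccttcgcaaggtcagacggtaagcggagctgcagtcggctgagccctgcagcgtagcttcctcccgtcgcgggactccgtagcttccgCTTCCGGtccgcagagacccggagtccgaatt
Mrpl51 promoter, chr6:125192100-125192249, plus strand: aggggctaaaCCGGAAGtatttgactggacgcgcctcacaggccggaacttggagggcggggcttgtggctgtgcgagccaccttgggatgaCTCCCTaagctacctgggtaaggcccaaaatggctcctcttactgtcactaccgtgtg
Mrps9 promoter, chr1:42851133-42851282, plus strand: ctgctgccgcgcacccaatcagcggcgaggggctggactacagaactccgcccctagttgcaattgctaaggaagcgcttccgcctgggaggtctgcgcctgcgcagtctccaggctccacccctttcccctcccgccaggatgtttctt
Rps15, Rps26, Mrpl52 and Mrps21 are the low members, and Rpl41, Rpl5, Mrpl51 and Mrps9 the ones within the range of the other arrays. Mrpl52 carries CCGGAAG at 2 positions, 1 of them across a pyrimidine run of 5 bases at the start, and Mrps21, Rpl41 and Mrpl51 at 1 each within the bases shown, so low and level members both hold it. Rps26 has a pyrimidine run of 9 bases at its annotated start, the only one of these 4 cytoplasmic promoters with a run of 5 or more there. Runs farther from the annotated start, as in Rps15, were not counted. Whether the annotated start is the one used in these cells was not tested.

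Over all members, promoters matched for 48 of 55 cytoplasmic genes (58 windows of 250 bases before to 50 after a start) and 62 of 70 mitochondrial genes (68 windows). CCGGAAG was found on either strand in 34.5% of cytoplasmic and 36.8% of mitochondrial windows, against 8.86% of all 32851 windows of the same length. A pyrimidine run of 9 bases or more at the annotated start was present in 32.8% of cytoplasmic but 7.35% of mitochondrial windows, against 6.89% of all. The TATA motif TATAAA was in 8.62% and 7.35%, against 13.6%. CCGGAAG was thus about as frequent in both classes, and the long pyrimidine run was common in the cytoplasmic one. A match describes letters in a window, not a bound site.

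The first question was whether any Bicc1 siRNA changed ribosomal protein mRNA. In the fit over all 16 arrays 0 of 125 members passed limma's moderated test (Benjamini-Hochberg adjusted p under 0.05 over 9560) in any of 7 comparisons, and 0 passed under any of 26 alternatives of each. Among all genes the share past the test was 0.0209% for BICC1_1 against SC, 0.0523% for BICC1_2, 0.0105% for the arrays labelled BICC1_3 and 0.0105% for the mean of the 3 siRNAs. Between siRNAs it was 0.282% for BICC1_1 against BICC1_2, 0.0732% for BICC1_1 against BICC1_3 and 0.115% for BICC1_2 against BICC1_3. At an unadjusted p under 0.05 there were 1 cytoplasmic and 1 mitochondrial member with BICC1_1 (6.16% of all genes), 1 and 0 with BICC1_2 (5.24%) and 6 and 4 in the arrays labelled BICC1_3 (9.24%). For the mean of the siRNAs there were 3 and 0 (6.69%). Between siRNAs there were 0 and 1 for BICC1_1 against BICC1_2 (6.38%), 1 and 4 for BICC1_1 against BICC1_3 (6.09%) and 1 and 5 for BICC1_2 against BICC1_3 (8.28%).

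The class medians lay below 0 against SC with all 16 arrays and close to 0 without 3 of them. The median log2 difference of the cytoplasmic members was -0.13 with BICC1_1, -0.02 with BICC1_2 and -0.23 in the arrays labelled BICC1_3, with 49, 41 and 50 of 55 below 0. For the mitochondrial members it was -0.02, -0.02 and -0.14, with 39, 42 and 62 of 70 below 0. Over all genes the medians were 0.00, 0.00 and -0.01, with 49.4%, 48.6% and 52.0% below 0. With median scaling in place of quantile normalisation the cytoplasmic medians were -0.19, -0.10 and -0.38. All comparisons share the SC arrays.

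Without replicate 1 of the arrays labelled BICC1_3, BICC1_1 replicate 3 and BICC1_2 replicate 3 these medians shrank. The cytoplasmic medians were then -0.03, -0.01 and -0.02, with 38, 32 and 36 of 55 below 0. The mitochondrial medians were 0.05, -0.00 and 0.01, with 18, 35 and 31 of 70 below 0. Over all genes 48.2%, 48.0% and 51.7% were then below 0. The arrays left out had been picked for low values of these genes. In the BICC1_1 comparison the 2 classes thus stood on opposite sides of 0 without these arrays, 38 of 55 cytoplasmic members lower and 52 of 70 mitochondrial members higher. Array by array, cytoplasmic minus mitochondrial class medians were -0.02, -0.06 and -0.05 log2 on BICC1_1 replicates 1, 2 and 4. On the SC arrays this difference was 0.01 to 0.04, and on the 13 arrays besides those 3 it ran from -0.06 to 0.06.

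**Figure D1:**
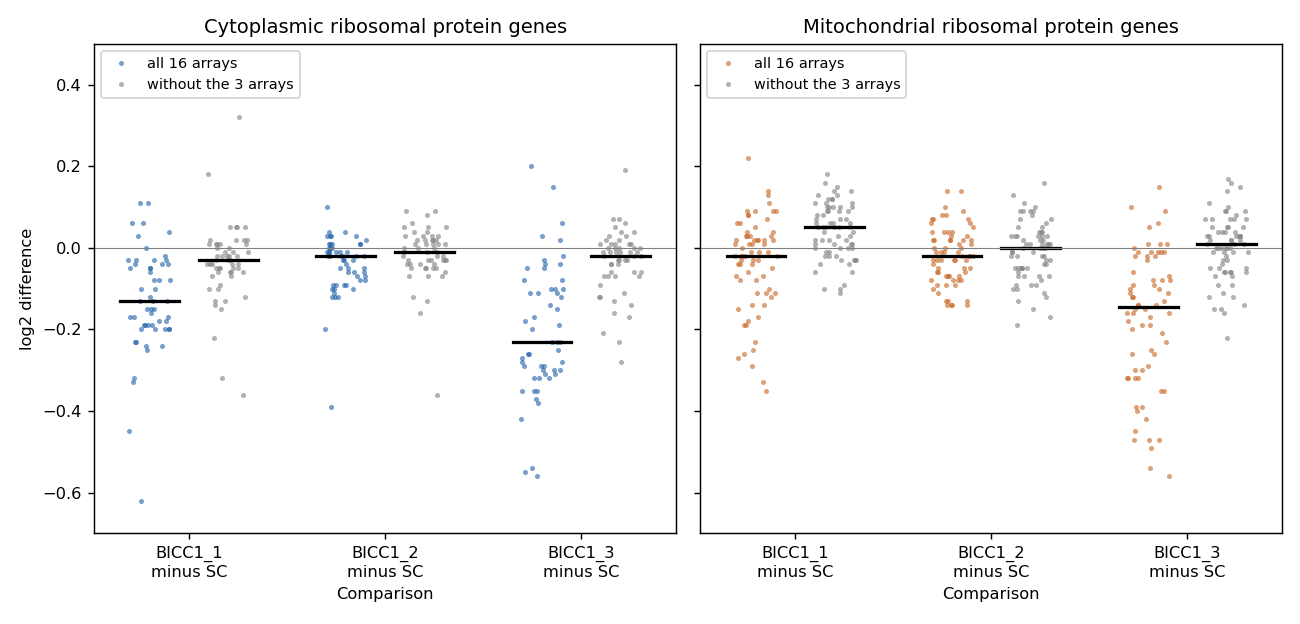
Log2 difference from SC of each cytoplasmic (left, n = 55) and mitochondrial (right, n = 70) ribosomal protein gene for the 3 siRNAs, in colour with all 16 arrays and in grey without replicate 1 of the arrays labelled BICC1_3, BICC1_1 replicate 3 and BICC1_2 replicate 3. Points are genes and bars are medians. The cytoplasmic medians move from -0.13, -0.02 and -0.23 to -0.03, -0.01 and -0.02.

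Read array by array, both ribosomes stood low on BICC1_3 replicate 1 and BICC1_1 replicate 3, which had been picked for low values. Each member was set against its own median over all 16 arrays. The cytoplasmic class median of these deviations was -0.79 log2 on BICC1_3 replicate 1 and -0.41 on BICC1_1 replicate 3, which corresponds to 58.0% and 75.1% of the members' usual level. The mitochondrial class median was -0.62 and -0.19 there, or 65.1% and 87.5%. On BICC1_2 replicate 3 it was -0.08 for the cytoplasmic and -0.01 for the mitochondrial class. On the other 13 arrays the class medians lay between -0.03 and 0.05 (cytoplasmic) and between -0.04 and 0.06 (mitochondrial). The median over all genes, which quantile normalisation largely fixes, stayed within 0.01 of 0 on all 16.

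These 3 arrays had been picked earlier for low ribosomal and respiratory gene values, so the values there are a description. Cytoplasmic minus mitochondrial class medians were -0.17 on BICC1_3 replicate 1 and -0.22 on BICC1_1 replicate 3. With median scaling the cytoplasmic values on the 3 arrays were -1.13, -0.59 and -0.21, and the mitochondrial ones -0.78, -0.26 and -0.03. The all-gene median, which this scaling itself holds near 0, moved by at most 0.06. BICC1_3 replicate 1 had the highest number of detected probes of the 16 arrays (12863). On BICC1_3 replicate 1, BICC1_1 replicate 3 and BICC1_2 replicate 3 the median deviation of the osteoblast markers was 0.16, -0.00 and 0.10 and that of the macrophage markers -0.48, 0.26 and -0.01, against -0.28 to 0.15 for macrophage markers on the other 13 arrays. The skeletal muscle markers lay at -0.30, -0.06 and 0.04, the endothelial at -0.18, 0.00 and 0.38, the adipocyte at -0.02, 0.08 and 0.17 and the chondrocyte at 0.14, -0.24 and 0.24. The log2 of the summed intensities of the 5 macrophage markers ran from 12.15 to 12.38 with SC and 12.21 to 13.12 with BICC1_1. It ran from 11.87 to 12.32 with BICC1_2 and 12.33 to 12.60 in the arrays labelled BICC1_3. This sum is mostly Lyz2, the brightest of the 5 (mean log2 11.89, the next C1qb at 9.44). On BICC1_3 replicate 1 Lyz2 lay at 0.52, while Adgre1, C1qa, C1qb and Cd14 lay at -0.48, -0.88, -0.87 and -0.25. The part of these markers, and of RNA quality, in the result was not tested.

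**Figure D2:**
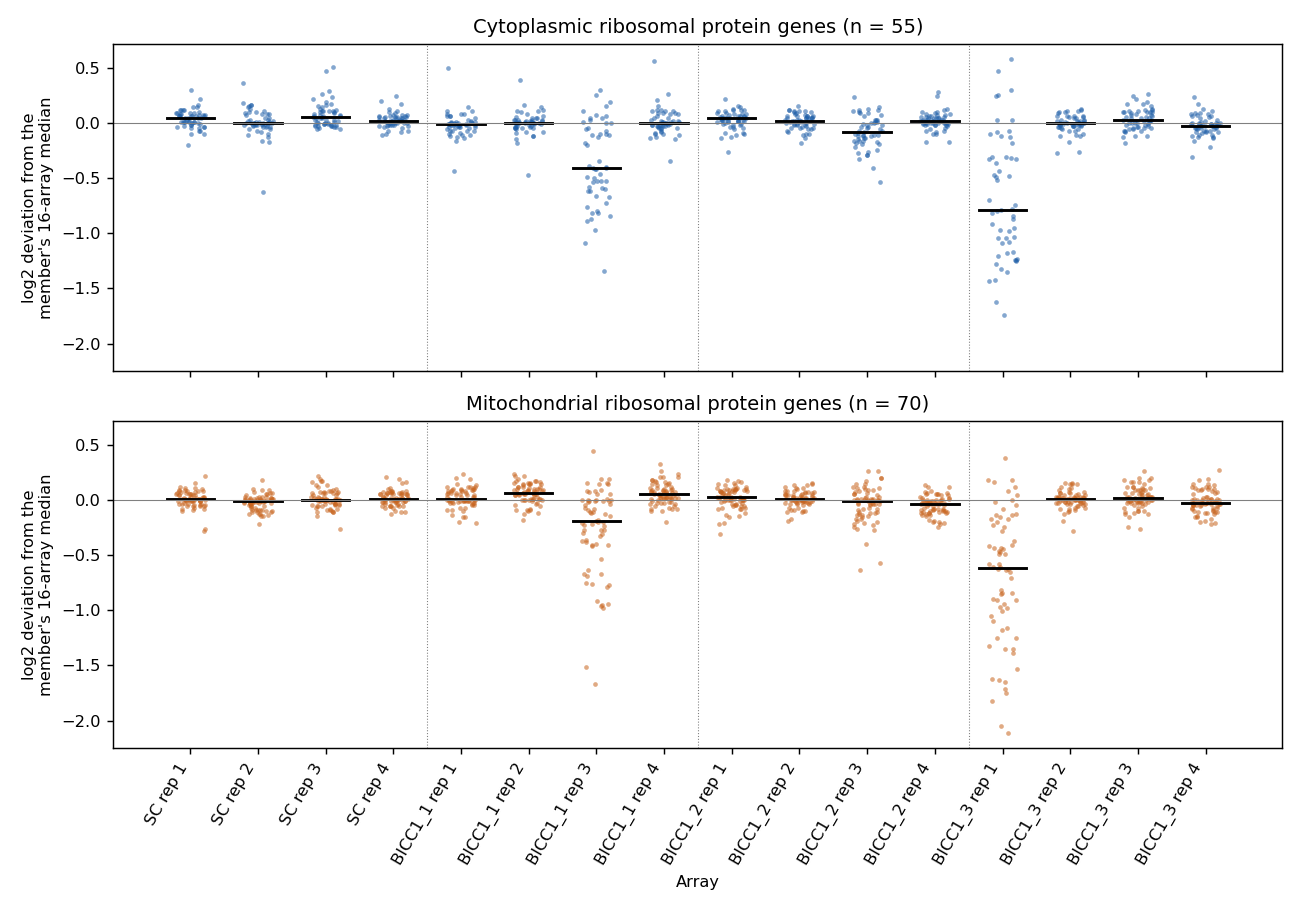
Log2 deviation of every cytoplasmic (top, n = 55) and mitochondrial (bottom, n = 70) ribosomal protein gene from its own 16-array median, on each of the 16 arrays. Points are genes and black bars class medians. On BICC1_3 replicate 1 the medians are -0.79 and -0.62 and on BICC1_1 replicate 3 they are -0.41 and -0.19, against -0.04 to 0.06 on the 13 arrays besides these and BICC1_2 replicate 3.

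On BICC1_3 replicate 1, 46 of 55 cytoplasmic and 55 of 70 mitochondrial members lay below all of the 13 other arrays, where 27.7% of all genes did. On BICC1_1 replicate 3 these counts were 35 and 39 (22.3% of all genes), and on BICC1_2 replicate 3 they were 21 and 17 (14.3%). Both of the first arrays had 34 cytoplasmic and 39 mitochondrial members below the 13 (15.6% of all genes), and 20 and 17 members lay below on all 3 (7.18%). The rule that picked the arrays used these families, so the shares are set beside the background and nothing is read from them.

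Within the cytoplasmic ribosome the displacement ranged from -1.74 to 0.58 on BICC1_3 replicate 1. Rps15, a protein of the head of the small subunit, stood at 13.37, 13.44, 13.47 and 13.42 on the SC arrays, 13.46, 13.47, 12.50 and 13.48 with BICC1_1, 13.52, 13.51, 13.29 and 13.51 with BICC1_2 and 11.85, 13.46, 13.53 and 13.48 in the arrays labelled BICC1_3. Its 13 usual arrays spanned 13.37 to 13.53, so BICC1_3 replicate 1, at a deviation of -1.62, and the other two low arrays lay outside the range of the rest. Rps26, which lines the channel where mRNA leaves the ribosome, stood at 15.01, 14.96, 14.99 and 14.95 with SC, 14.85, 14.98, 13.86 and 14.93 with BICC1_1, 15.06, 14.99, 14.54 and 14.95 with BICC1_2 and 13.52, 15.06, 14.93 and 14.89 in the arrays labelled BICC1_3. Here too the same 3 arrays were the lowest, with the other 13 between 14.85 and 15.06.

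Rpl30, a large-subunit protein whose yeast counterpart binds its own transcript, had the lowest deviation of the class on BICC1_3 replicate 1. It stood at 11.90, 12.03, 11.95 and 12.06 with SC, 11.79, 11.91, 11.09 and 11.85 with BICC1_1, 11.92, 11.99, 11.72 and 11.90 with BICC1_2 and 10.16, 11.85, 11.85 and 11.89 in the arrays labelled BICC1_3, a deviation of -1.74 on replicate 1. The SC range (11.90 to 12.06) overlapped those of BICC1_1 and BICC1_2 and lay above all 4 arrays labelled BICC1_3. Against SC it differed by -0.55 log2 in that group (SE 0.29, limma adjusted p = 0.573), and by -0.12 without the 3 arrays (SE 0.06, adjusted p = 0.429).

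The other members listed here for roles beyond bulk translation lay between -1.25 and -0.12 on BICC1_3 replicate 1. Rps19, mutated in human Diamond-Blackfan anaemia, lay at -1.25 on BICC1_3 replicate 1 and -0.54 on BICC1_1 replicate 3, while Rps14, the small-subunit gene of the human 5q- syndrome, lay at -0.12 and -0.06. Rpl10, which joins the large subunit late in its assembly, lay at -0.31 and 0.04. Rps6, the substrate of the S6 kinases, lay at -0.13 and 0.15. Rps19 thus lay lowest of the 4. With median scaling Rps14 lay at -0.60 and -0.40, Rpl10 at -0.78 and -0.33 and Rps6 at -0.49 and -0.09, so that the positive values of Rpl10 and Rps6 turned negative.

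The paralogue pairs gave a further contrast. Rps27 lay at -0.95, -0.84 and -0.33 on BICC1_3 replicate 1, BICC1_1 replicate 3 and BICC1_2 replicate 3, and its p53-induced paralogue Rps27l at -1.04, -0.59 and -0.12, so both were below the other 13 arrays on all 3. Rpl22 and its paralogue Rpl22l1 parted. On BICC1_3 replicate 1 Rpl22 was the highest member of its class at 0.58, and Rpl22l1 lay at -1.42. On BICC1_1 replicate 3 they stood at -0.10 and -1.34. The Rpl22l1 deviations depended on the background correction, at -0.83 and -0.79 without it and -0.46 and -0.45 in the authors' deposited log2 table.

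**Figure D3:**
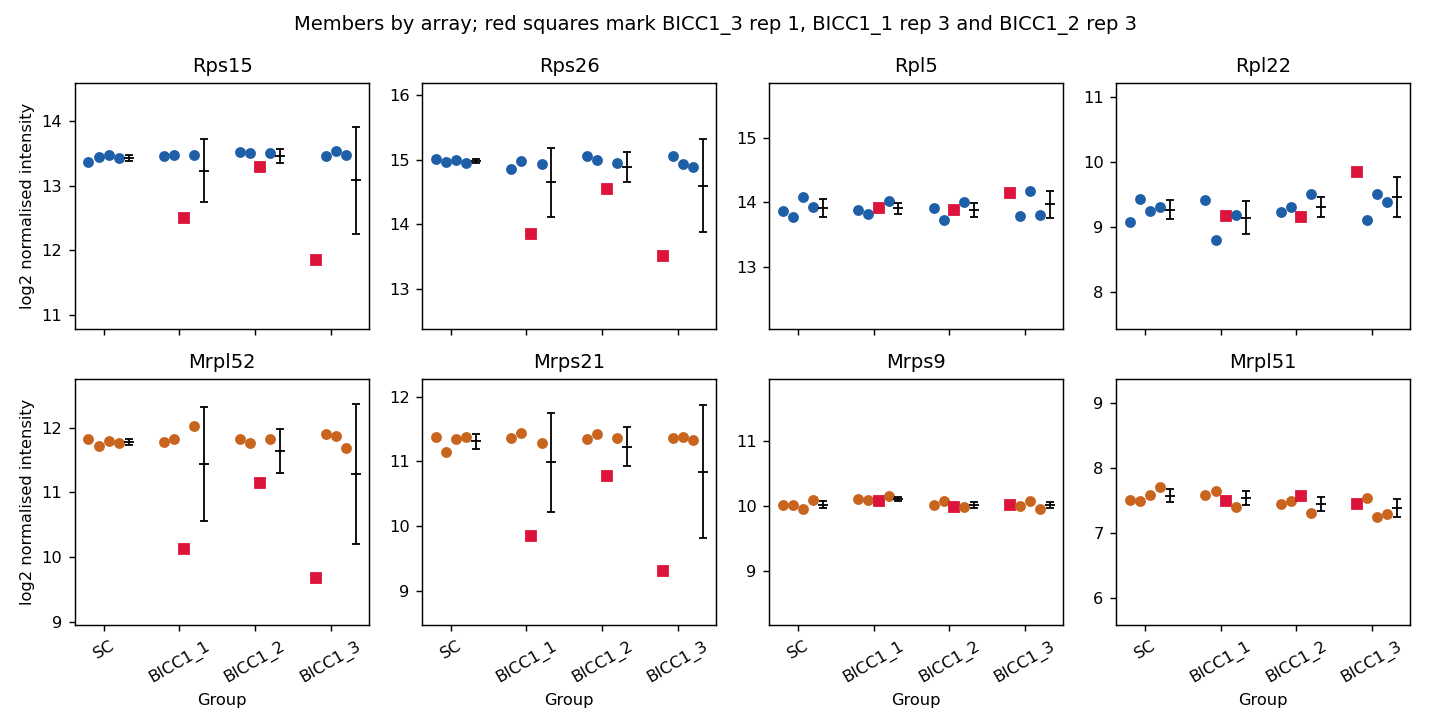
Log2 normalised intensity of 8 members on all 16 arrays by group, cytoplasmic in the top row and mitochondrial in the bottom row. Circles and squares are arrays, the squares marking BICC1_3 replicate 1, BICC1_1 replicate 3 and BICC1_2 replicate 3, and black bars are group means ± SD (n = 4). Each vertical axis covers the same log2 span. Rps15, Rps26, Mrpl52 and Mrps21 are low on the marked arrays, Rpl5, Mrps9 and Mrpl51 stay within the range of the others, and Rpl22 is highest on BICC1_3 replicate 1.

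A member was called flat if its values on BICC1_3 replicate 1 and BICC1_1 replicate 3 both lay within the range of the 13 other arrays. This held for 3 of 55 cytoplasmic and 9 of 70 mitochondrial members, where it held for 32.7% of all genes. The cytoplasmic ones were Rpl5, Rpl41 and Rps20. Rpl5, which carries the 5S ribosomal RNA into the large subunit and binds the p53 regulator Mdm2, stood at 13.87, 13.77, 14.09 and 13.93 with SC, 13.89, 13.82, 13.91 and 14.02 with BICC1_1, 13.92, 13.73, 13.89 and 14.00 with BICC1_2 and 14.14, 13.79, 14.17 and 13.80 in the arrays labelled BICC1_3. Its 3 values on the arrays that stood apart (14.14, 13.91 and 13.89) sat inside the usual range of 13.73 to 14.17. Rpl11, its partner in the 5S particle, is not analysed here.

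Rpl41, a very small basic protein of the large subunit, stood at 15.49, 15.35, 15.58 and 15.33 with SC, 15.44, 15.39, 15.48 and 15.27 with BICC1_1, 15.43, 15.39, 15.44 and 15.31 with BICC1_2 and 15.44, 15.35, 15.54 and 15.19 in the arrays labelled BICC1_3. The groups overlapped fully, and BICC1_3 replicate 1 deviated by 0.03. Rps20, a protein of the small-subunit head, deviated by 0.03 on BICC1_3 replicate 1 and by -0.05 on BICC1_1 replicate 3, within a range of 15.15 to 15.53 on the other 13 arrays. Rpl41 was flat under all 5 settings tried, whereas with median scaling Rpl5 and Rps20 were not flat and Rpl3 and Rpl7l1 were. The probes of Rpl41 and Rps20 are among the brightest of the class (SC means 15.44 and 15.32). On BICC1_3 replicate 1 Rpl38 lay at -0.97 by its brightest probe (mean 15.27) and at -2.41 by its dimmer one (11.31). Rps24 lay at -0.33 and -0.92, but Rpl31 at -1.04 and -0.53 and Rps3 at -0.52 and -0.29. These genes were named after their values were seen. The part of probe brightness in this flatness was not tested.

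A few cytoplasmic members stood higher where the class stood low. Rpl3, which reaches towards the peptidyl transferase centre, lay at 0.47 and 0.25 on BICC1_3 replicate 1 and BICC1_1 replicate 3. That was above all 13 other arrays on both (28.3% and 22.1% of all genes lay above on each). The lowest values of Rpl3 there across the alternatives were -0.0 and -0.09, and with median scaling Rpl3 was flat. Rpl7l1, a paralogue of Rpl7 used in ribosome assembly, lay at 0.30 and 0.11, but its second probe gave -0.24 and 0.05. Rpl22 at 0.58 was above the 13 on the first of these arrays and within their range on the other. Rpl3 did not differ beyond the test from SC with any siRNA (0.11, 0.04 and 0.15 log2, limma adjusted p = 0.963, 1.00 and 0.623), and with median scaling its differences were -0.00, -0.05 and -0.03.

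In the mitochondrial ribosome deviations on BICC1_3 replicate 1 ranged from -2.11 to 0.38. Mrpl52, a large-subunit protein without a bacterial counterpart, stood at 11.83, 11.72, 11.79 and 11.77 with SC, 11.78, 11.82, 10.12 and 12.02 with BICC1_1, 11.82, 11.77, 11.14 and 11.83 with BICC1_2 and 9.68, 11.90, 11.87 and 11.69 in the arrays labelled BICC1_3. The deviations of BICC1_3 replicate 1, BICC1_1 replicate 3 and BICC1_2 replicate 3 were -2.11, -1.67 and -0.64, and the other 13 lay between 11.69 and 12.02. Mrps21, the counterpart of bacterial S21, stood at 11.38, 11.14, 11.35 and 11.38 with SC, 11.36, 11.44, 9.84 and 11.29 with BICC1_1, 11.35, 11.42, 10.78 and 11.36 with BICC1_2 and 9.30, 11.36, 11.38 and 11.33 in the arrays labelled BICC1_3. The same 3 arrays were its lowest.

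Mrpl14, the counterpart of bacterial L14, lay at -1.82, -0.94 and -0.23 on BICC1_3 replicate 1, BICC1_1 replicate 3 and BICC1_2 replicate 3. Mrps16, mutated in a human deficiency of oxidative phosphorylation, lay at -1.62, -0.67 and -0.14, and Mrps12, which helps to form the decoding centre, at -1.35, -0.69 and -0.14. All of these were below the 13 other arrays on each of the 3. Mrps22 and Mrpl12, which also binds the mitochondrial RNA polymerase, lay at -0.45 and -0.63 on BICC1_3 replicate 1 but at -0.20 and -0.01 on BICC1_1 replicate 3. Mrpl3, another gene mutated in human respiratory disease, lay at 0.04, 0.15 and 0.12.

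The flat mitochondrial members were Mrpl9, Mrpl15, Mrpl35, Mrpl38, Mrpl49, Mrpl51, Mrpl57, Mrps2 and Mrps9. Mrps9, the counterpart of bacterial S9, stood at 10.01, 10.01, 9.96 and 10.09 with SC, 10.11, 10.09, 10.08 and 10.16 with BICC1_1, 10.02, 10.08, 9.99 and 9.99 with BICC1_2 and 10.02, 10.00, 10.08 and 9.96 in the arrays labelled BICC1_3. All 16 values lay within 9.96 to 10.16, and BICC1_3 replicate 1 lay on its median. Mrpl9, the counterpart of bacterial L9, deviated by 0.16 and 0.08 on BICC1_3 replicate 1 and BICC1_1 replicate 3 within a range of 9.13 to 9.57, and Mrps2, the counterpart of bacterial S2, by -0.17 and 0.05 within 8.33 to 8.71.

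Mrpl51 stood at 7.51, 7.50, 7.59 and 7.71 with SC, 7.58, 7.65, 7.50 and 7.40 with BICC1_1, 7.44, 7.49, 7.57 and 7.31 with BICC1_2 and 7.45, 7.54, 7.24 and 7.30 in the arrays labelled BICC1_3. The groups overlapped, with BICC1_3 replicate 1 in the middle of the range. Mrpl15, Mrpl35, Mrpl51 and Mrpl57 had probes with mean log2 intensities of 6.69, 7.31, 7.49 and 6.76, among the dimmest of the class. Across the 70 mitochondrial members Spearman's rho between mean log2 intensity and deviation was -0.37 on BICC1_3 replicate 1 and -0.28 on BICC1_1 replicate 3. Mrpl39, also dim, lay at -0.58 on BICC1_3 replicate 1. The part of low brightness in the flatness was not tested. Other kept probes of Mrpl49 lay at -0.94, -0.38 and -0.74 on BICC1_3 replicate 1, where the brightest lay at -0.14, and those of Mrpl51 at -0.59 and -0.23, so neither gene was flat on every probe. Mrpl9, Mrpl15, Mrpl35 and Mrps2 were flat under all 5 settings. With median scaling Mrps9 (-0.17 on BICC1_3 replicate 1), Mrpl38, Mrpl49 and Mrpl57 were not flat, and Mrpl10 and Mrpl37 were.

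**Figure D4:**
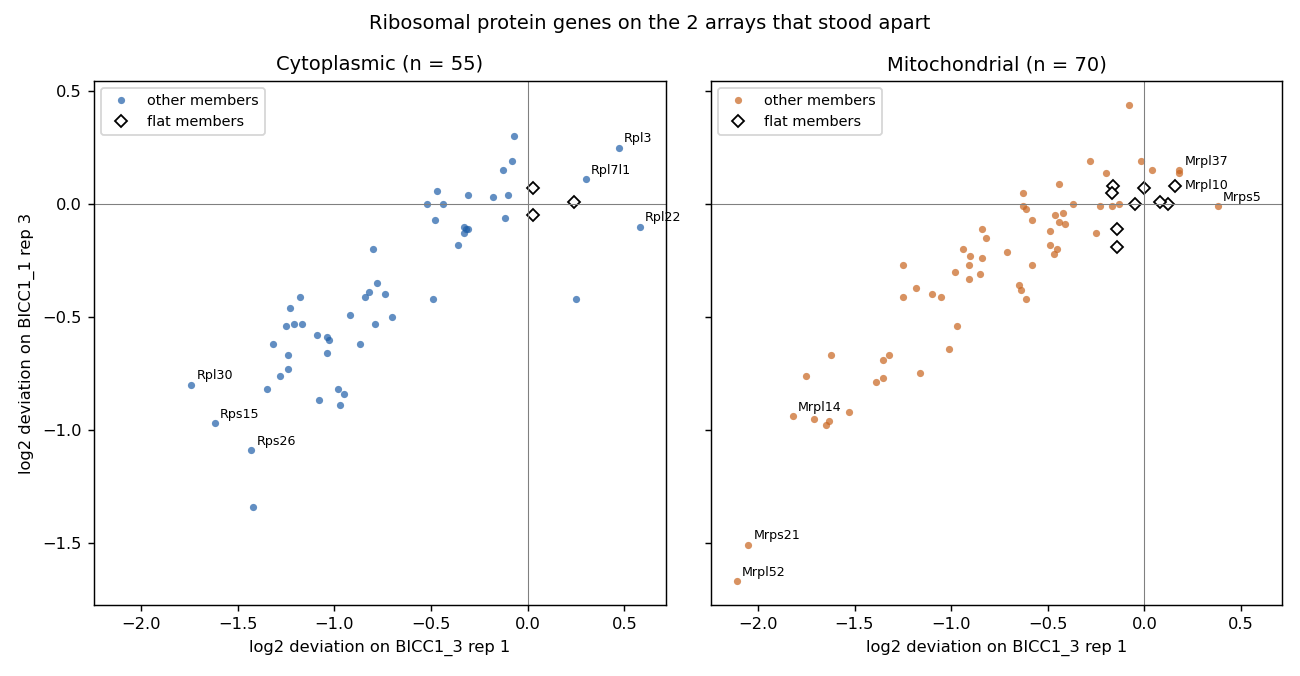
Log2 deviation on BICC1_3 replicate 1 (horizontal) against BICC1_1 replicate 3 (vertical) for the cytoplasmic (left, n = 55) and mitochondrial (right, n = 70) members. Filled points are members and open diamonds the flat ones, 3 and 9, and the 3 lowest and 3 highest on the horizontal axis are named. Mrpl52 is lowest on both axes at -2.11 and -1.67. Rpl22 is highest on the horizontal axis at 0.58 and -0.10, and Mrpl1 on the vertical axis at -0.08 and 0.44. Some members low on the first array, such as Mrpl12 at -0.63 and -0.01, were not low on the other.

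The order of the members was similar on both arrays. Across the 55 cytoplasmic genes Spearman's rho between their deviations on BICC1_3 replicate 1 and BICC1_1 replicate 3 was 0.87, and across the 70 mitochondrial genes 0.90, against 0.64 across all 9560. Between BICC1_1 replicate 3 and BICC1_2 replicate 3 it was 0.75, 0.64 and 0.50. Genes are not independent replicates, and both deviations share each gene's median and probe. The arrays were also picked for low values of these families, so the higher rho within them is a description and nothing is read from it. The large and small subunits had cytoplasmic medians of -0.82 and -0.61 and mitochondrial medians of -0.63 and -0.61 on BICC1_3 replicate 1. Mrpl46 and Mrps11, which neighbour each other in the RefSeq gene table, lay at -0.61 and -0.94 there.

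Ribosomal protein genes are short in the genome. All 125 members have a span in the RefSeq gene table of GRCm38.p6, with medians of 3352 bases for cytoplasmic and 7690 for mitochondrial genes against 21545 for all. Among the tenth of genes with the shortest span (up to 4133 bases) the 35 cytoplasmic members had a median deviation of -0.92 on BICC1_3 replicate 1, the 20 mitochondrial members -0.64, and the 829 other genes -0.32. On BICC1_1 replicate 3 these were -0.53, -0.29 and -0.14. Across genes, Spearman's rho between span and deviation on BICC1_3 replicate 1 was 0.41 (n = 55), 0.18 (n = 70) and 0.31 (all, n = 8828). Span includes introns, and mRNA length was not analysed here, nor was its part in the result tested.

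Of 31 members with several kept probes, the further probes had the sign of the brightest on BICC1_3 replicate 1 in 8 of 11 cytoplasmic and 17 of 20 mitochondrial genes. The exceptions were Rpl21, Rpl23, Rpl7l1, Mrps18b, Mrps31 and Mrps5, of which Rpl21, Rpl23, Mrps18b and Mrps31 were named after their values were seen. Mrps5, the highest mitochondrial member there at 0.38, lay at -0.34 by its second probe. Mrpl37 and Mrpl10, a protein at the base of the ribosomal stalk, each lay at 0.18. Ribosomal protein genes have many processed copies in the genome, and whether a probe also reads such copies was not tested.

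The lists that follow are given after quantile normalisation only. Translation factors and other TOP mRNAs had a median deviation of 0.15, 0.18 and 0.06 on BICC1_3 replicate 1, BICC1_1 replicate 3 and BICC1_2 replicate 3. Of the 18 genes listed 15 were tested. The mitochondrial translation list lay at 0.11, 0.09 and 0.02 (26 of 31 tested). Besides factors, it was drawn up with mitochondrial ribosomal proteins under other symbols, such as Dap3, and mitochondrial transcription genes, such as Tfam. Ribosome biogenesis genes lay at -0.11, -0.12 and -0.05 (32 of 42) and proteasome subunits at -0.13, 0.00 and 0.07 (34 of 34). NADH dehydrogenase genes, subunits of respiratory complex I, lay lower than either ribosome at -1.43, -0.76 and -0.20 (34 of 34). Of ribosomal proteins with other symbols, Fau, whose precursor yields small-subunit protein S30, lay at -1.57, -0.86 and -0.19, while the stalk proteins Rplp0 and Rplp1 lay at -0.21 and 0.02 on BICC1_3 replicate 1. Rpsa, a small-subunit protein, lay at -0.34, -0.50, -0.46 and -0.01 on the 4 arrays labelled BICC1_3. Its difference from SC there was -0.41 log2 (limma adjusted p = 0.335).

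Genes below the 13 other arrays were counted on BICC1_3 replicate 1, BICC1_1 replicate 3 and BICC1_2 replicate 3. The counts were 6, 2 and 3 for translation factors and other TOP mRNAs and 6, 4 and 6 for the mitochondrial translation list. They were 15, 15 and 9 for ribosome biogenesis and 17, 9 and 4 for the proteasome. For NADH dehydrogenase they were 31, 29 and 19, and for the other ribosomal proteins 2, 1 and 1. Among all genes the shares were 27.7%, 22.3% and 14.3%.

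In the comparisons with SC, 0 genes of these lists passed the test in either direction. Eef2, the elongation factor that moves the ribosome along mRNA, lay at 0.64 log2 in the arrays labelled BICC1_3 (adjusted p = 0.487) and Slirp, which stabilises mitochondrial mRNAs, at -0.56 (0.648). The NADH dehydrogenase median was -0.19 with BICC1_1, -0.04 with BICC1_2 and -0.38 in the arrays labelled BICC1_3, and 0.01, 0.01 and -0.01 without the 3 arrays. The median of the list of translation factors and other TOP mRNAs was 0.00, -0.02 and -0.02 in the same comparisons.

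**Figure D5:**
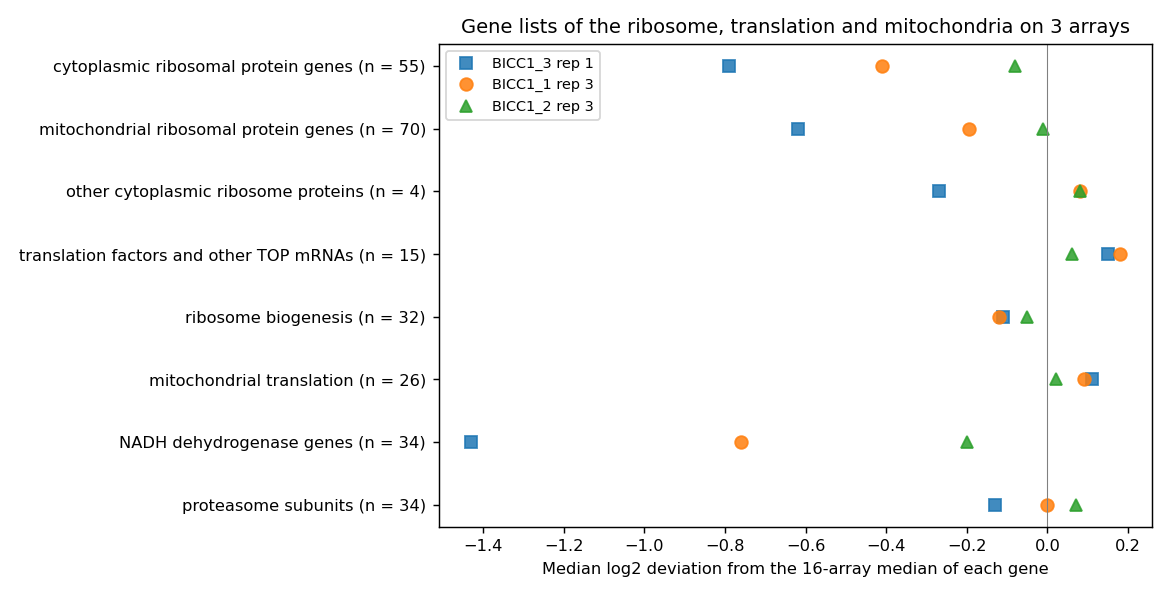
Median log2 deviation from each gene's 16-array median for both classes of ribosomal protein genes and 6 further lists, on BICC1_3 replicate 1 (squares), BICC1_1 replicate 3 (circles) and BICC1_2 replicate 3 (triangles), with the number of genes beside each list. NADH dehydrogenase genes (-1.43) and both ribosomal classes (-0.79 and -0.62) lie left of 0 on the first array. Translation factors and other TOP mRNAs (0.15) and the mitochondrial translation list (0.11) lie to the right there, after quantile normalisation.

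Single members differed from SC by small amounts that did not pass the test. Rps15a, a small-subunit protein, stood at 5.76, 6.10, 6.20 and 5.97 with SC, 5.71, 5.83, 5.32 and 5.39 with BICC1_1, 5.48, 5.66, 5.55 and 5.80 with BICC1_2 and 5.99, 5.67, 5.69 and 5.97 in the arrays labelled BICC1_3. SC was high and overlapped every other group. The differences were -0.45 log2 with BICC1_1 (SE 0.13, limma adjusted p = 0.483), -0.39 with BICC1_2 (SE 0.13, 0.659) and -0.18 in the arrays labelled BICC1_3 (SE 0.13, 0.626), and without the 3 arrays -0.36, -0.36 and -0.23. Its probe is dim and was not detected on 3 arrays, which makes Rps15a, detected on 13, the member closest to the detection threshold, and in the authors' deposited log2 table its first 2 differences were -0.09 and -0.08, and without background correction -0.20 and -0.17.

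Rpl22l1 stood at 7.67, 7.63, 7.70 and 7.58 with SC, 7.01, 7.27, 6.11 and 7.71 with BICC1_1, 7.40, 7.47, 7.34 and 7.58 with BICC1_2 and 6.02, 7.49, 7.40 and 7.42 in the arrays labelled BICC1_3. All 4 of the last group lay below SC, while BICC1_1 and BICC1_2 each touched the SC range through replicate 4. The differences were -0.62, -0.20 and -0.56 (SE 0.31, adjusted p = 0.819, 1.00 and 0.574), and without the 3 arrays -0.32, -0.16 and -0.21 (SE 0.12, adjusted p = 0.354, 0.770 and 0.534). With all arrays they were -0.39, -0.14 and -0.35 without background correction and -0.24, -0.09 and -0.21 in the authors' deposited log2 table. The value for its partner Rpl22 was -0.12, 0.03 and 0.20.

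A few members separated from SC on every array of a group, and those outside the naming rule are named after their values were seen. With BICC1_1, 3 of 55 cytoplasmic members, Rpl13a, Rps9 and Rps13, had all 4 values under the lowest SC value (2.67% of all genes), and 2 of 70 mitochondrial members, Mrpl3 and Mrpl37, were higher (3.68%). With BICC1_2, Rps6 and Mrps11 were lower (2.73%) and Mrps23 was higher (3.87%). In the arrays labelled BICC1_3, 7 cytoplasmic members, Rpl13a, Rpl22l1, Rpl30, Rpl39l, Rps2, Rps9 and Rps13, and 3 mitochondrial members, Mrpl18, Mrpl42 and Mrpl46, were lower (3.53%), and 0 were higher (3.06%).

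Rps13 stood at 14.16, 14.19, 14.17 and 14.18 with SC, 14.08, 14.09, 13.55 and 14.07 with BICC1_1, 14.10, 14.19, 14.01 and 14.08 with BICC1_2 and 12.91, 14.07, 14.00 and 14.03 in the arrays labelled BICC1_3. BICC1_1 and the arrays labelled BICC1_3 lay below SC throughout, and BICC1_2 overlapped it. The differences were -0.23, -0.08 and -0.42 (SE 0.20, adjusted p = 0.954, 1.00 and 0.539), and -0.09, -0.05 and -0.14 without the 3 arrays (SE 0.05, lowest adjusted p = 0.294).

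Rps6 stood at 13.78, 13.85, 13.81 and 13.75 with SC, 13.69, 13.73, 13.85 and 13.61 with BICC1_1, 13.69, 13.65, 13.71 and 13.65 with BICC1_2 and 13.58, 13.60, 13.75 and 13.67 in the arrays labelled BICC1_3. BICC1_2 lay below SC throughout, BICC1_1 overlapped it through replicate 3, and the arrays labelled BICC1_3 reached its lowest value. The differences were -0.08, -0.12 and -0.15 log2 (SE 0.06, adjusted p = 0.952, 1.00 and 0.528) and -0.12, -0.13 and -0.12 without the 3 arrays (SE 0.05, adjusted p = 0.453, 0.506 and 0.419). With the 3 arrays left out the differences thus lay at -0.13 to -0.12 with each siRNA, and none passed the test.

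Of the mitochondrial members, Mrpl1 gave the lowest unadjusted p with BICC1_1. It stood at 9.65, 9.78, 9.75 and 9.75 with SC, 9.75, 9.89, 10.19 and 10.01 with BICC1_1, 9.73, 9.76, 10.01 and 9.73 with BICC1_2 and 9.67, 9.73, 9.77 and 9.71 in the arrays labelled BICC1_3. BICC1_1 was high and met SC at replicate 1, and the other groups overlapped SC. The difference was 0.22 log2 with BICC1_1 (SE 0.09, adjusted p = 0.683) and 0.15 without the 3 arrays (SE 0.06, 0.393), against 0.07 and -0.01 for the other siRNAs. Between siRNAs the lowest adjusted p of any member was 0.749 for BICC1_1 against BICC1_2, 0.533 for BICC1_1 against BICC1_3 and 0.532 for BICC1_2 against BICC1_3, so no member was shown to differ between siRNAs.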

How the data were processed

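The authors deposited a non-normalized table of bead-array intensity with a detection score per probe for each of the 16 arrays, made with GenomeStudio per the submitters' processing notes, and a log2 value table whose transform is not given in the sources used here. The deposited detection score rises towards 1 with signal and was read as 1 minus a detection p. Background correction and quantile normalisation used limma's neqc (limma 3.58.1, R 4.3.3, offset 16). Of 25697 probes, 12802 with detection p under 0.05 on 4 or more arrays were kept, and the brightest probe per gene gave 9560 tested. One lmFit and eBayes fit covered the 4 groups (12 residual and 3.962 prior degrees of freedom), with Benjamini-Hochberg adjustment over all 9560. A deviation is a log2 value minus the gene's median over 16 arrays. Precision is limited by the number of arrays, and the median SE was 0.108 log2 against SC.

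Members and lists were chosen with earlier results of these data known. The text names members past the test, the 2 highest and 2 lowest differences per class and siRNA, the 3 lowest and 3 highest deviations on BICC1_3 replicate 1, flat members (up to 8 per class, with the ninth added afterwards), members fixed by role and those nearest the detection threshold. Alternatives covered scaling, background, filter, probe choice, array weights, a replicate block, separate fits and left-out arrays. Replicate numbers are not stated in the labels to mark a shared batch, so the main fit had no block. Scripts were tested on simulated data. Promoters came from RefSeq. Rpl11 and Mrpl44 were not analysed here.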

Additional observations from a re-analysis of the deposited data

Results flagged for a closer look

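In 35 of 188 groups of 4 arrays tested, 1 array lay farther from the other 3 than Dixon's 95% critical value allows, against about 1 in 20 by chance. That share is no yardstick here: 3 of the arrays had been picked for low ribosomal values, many members were named for their values on them, and the groups share arrays. The values are a description and support nothing. The class medians flagged were the cytoplasmic deviation on BICC1_1 replicate 3 (-0.41), BICC1_2 replicate 3 (-0.08) and BICC1_3 replicate 1 (-0.79), and the mitochondrial deviation on BICC1_3 replicate 1 (-0.62).

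Among members, BICC1_3 replicate 1 was the low array in 15 groups. Its cytoplasmic log2 values were 12.11 for Rpl19, 6.02 for Rpl22l1, 10.16 for Rpl30, 11.85 for Rps15, 13.95 for Rps19, 13.52 for Rps26 and 14.04 for Rps27l. Its mitochondrial values were 9.27 for Mrpl14, 9.94 for Mrpl24, 9.12 for Mrpl34, 9.68 for Mrpl52, 9.19 for Mrps16, 9.72 for Mrps18c, 9.30 for Mrps21 and 10.47 for Mrps6.

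BICC1_1 replicate 3 was the low array in 10 groups. The values were 11.09 for Rpl30, 12.50 for Rps15 and 13.86 for Rps26, and in the mitochondrial class 10.15 for Mrpl14, 10.08 for Mrpl49, 10.12 for Mrpl52, 11.45 for Mrps12, 10.14 for Mrps16, 10.39 for Mrps18c and 9.84 for Mrps21.

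BICC1_2 replicate 3 stood apart in 5 groups, low for Mrpl52 (11.14), Mrps21 (10.78) and Rps15 (13.29) and high for Mrpl1 (10.01) and Mrpl3 (11.13). Of the SC arrays, replicate 2 was flagged for Mrps21 at 11.14, lower than the other 3 controls.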

How the results depend on the processing

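In all 182 recomputed counts 0 members passed the test, with a lowest adjusted p of 0.1. Class median differences from SC with 1 array left out ran from -0.182 to -0.0317 (BICC1_1), -0.0509 to -0.00807 (BICC1_2), -0.31 to -0.0184 (BICC1_3) and -0.168 to -0.054 (mean of the siRNAs) for cytoplasmic members, and from -0.0474 to 0.0473, -0.0263 to -4.5e-05, -0.211 to 0.0115 and -0.0737 to -0.00184 for mitochondrial ones. For the cytoplasmic class the value nearest 0 came without BICC1_1 replicate 3, BICC1_2 replicate 3 and BICC1_3 replicate 1 in the respective siRNA's comparison, and without the last for the mean. With the replicate block 0 members passed either. The class medians stayed at -0.134, -0.024 and -0.228 (cytoplasmic) and -0.0161, -0.0204 and -0.145 (mitochondrial). They could not change, because every group holds each replicate number once. Same-numbered arrays correlated at -0.594 to 0.609 in their deviations from group means, and 6 of 16 correlated best with their own number. Whether same-numbered samples share a batch is not stated in the labels and cannot be told from these values.

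With median scaling the cytoplasmic BICC1_2 difference became -0.105, cytoplasmic deviations became -1.13 (BICC1_3 replicate 1), -0.59 (BICC1_1 replicate 3) and -0.21 (BICC1_2 replicate 3), and mitochondrial ones -0.78 and -0.26 on the first and second. On BICC1_3 replicate 1 the cytoplasmic deviation was -0.74 in the authors' deposited log2 table, -0.72 without a detection filter and -0.81 against the mean of the 13 other arrays, and the mitochondrial one -0.56, -0.58 without the filter and -0.59 without background correction. On BICC1_1 replicate 3 the cytoplasmic deviation was -0.46 against the 13 arrays, and the mitochondrial one -0.14 without the filter and -0.23 against the other 3 of its group. On BICC1_2 replicate 3 the cytoplasmic deviation was -0.11 against the other 3. With the mean of kept probes 6 cytoplasmic members were flat, an alternative chosen after seeing the data.

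Of 1077 recomputed member deviations 123 moved by at least the member's SD over the 13 arrays besides the 3 picked ones, all groups together. Of these 63 moved with median scaling. Of all 1077, 22 changed sign. Against SC, 9 of 622 recomputed member differences reversed. With BICC1_1, Mrpl52 became 0.09 and Mrps21 0.05 without the 3 arrays or without BICC1_1 replicate 3. Without 1 array each, Mrpl52 ran from -0.54 to 0.09, Mrps21 from -0.48 to 0.05 and Rps25 from -0.10 (without SC replicate 2) to 0.32, with -0.01 without BICC1_1 replicate 1. With median scaling Rpl3 became -0.00, -0.05 and -0.03 with the 3 siRNAs. The cause was not tested.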
